A study of Mus musculus with 6 samples.

Results

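Cytosolic ribosomal proteins were measured in striatum, in mice without PGC-1alpha and in wild-type littermates. The genes were taken by name, as Rpl or Rps followed by a number with an optional a, l, x or y, together with Rplp0 to Rplp2 and Rpsa, leaving out ribosomal S6 kinases and pseudogenes. Only probe sets listed under a single gene symbol were used, which gave 45 genes and 99 probe sets, of 18193 genes and 34945 probe sets with a single symbol on the array. Of these genes 24 belong to the large subunit and 21 to the small one. Each group held 3 female mice aged 6 months, and each mouse gave 1 Affymetrix mouse array. Knockout (KO) mice were PGC-1a -/- and the wild-type (WT) mice PGC-1a +/+, and heterozygous founders were bred to give both. The label of KO 3 names cytoplasmic RNA as the extract and the other 5 labels name total RNA, while the design text names total RNA throughout, so results are also given without KO 3.

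Each cytosolic ribosome carries a single copy of most of these proteins, bound to ribosomal RNA, and the cell keeps their supply matched. Their mRNAs are among the most abundant in any cell and usually begin with a C followed by a run of pyrimidines, the 5' terminal oligopyrimidine or TOP tract, through which mTOR signalling controls their translation. PGC-1alpha, encoded by Ppargc1a, is a transcriptional coactivator best known for raising genes of mitochondria and oxidative metabolism. Mitochondria carry ribosomes of their own, built from a separate set of proteins.

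A pyrimidine run near the start of transcription, which the naming rule did not use, was more frequent in the members than in all genes, but absent from most of those matched. In RefSeq promoter sequences of build GRCm38.p6, 40 of the 45 genes were matched. Of these, 19 genes, or 47.5%, had at least 8 consecutive C or T bases overlapping the 10 bases on either side of an annotated start, against 15.8% of all genes in that table and 13.0% of mitochondrial ribosomal protein genes. Only the strand that reads like the transcript was searched. The 60 bases around the start are shown for the 4 genes on which the results turn, with such a run in capitals. Base 41 is the first transcribed base, so the last 20 bases are the beginning of the first exon. Rpl22 has a pair of annotated starts.
Rps9, chr7:3704001-3704060, plus strand: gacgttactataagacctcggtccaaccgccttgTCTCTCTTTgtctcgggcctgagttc
Rpl13a, chr7:45128726-45128785, minus strand: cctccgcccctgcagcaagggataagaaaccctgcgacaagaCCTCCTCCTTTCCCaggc
Rps2, chr17:24720023-24720082, plus strand: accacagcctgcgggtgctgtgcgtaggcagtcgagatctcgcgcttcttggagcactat
Rpl22, first start, chr4:152324396-152324455, plus strand: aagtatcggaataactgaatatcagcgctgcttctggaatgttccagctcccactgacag
Rpl22, other start, chr4:152325686-152325745, plus strand: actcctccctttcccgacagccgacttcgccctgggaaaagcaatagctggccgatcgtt
Rps9 had a run of 9 bases and Rpl13a a run of 14, while neither Rps2 nor Rpl22 had a run of 8 or more within the bases searched.

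All 5 Ppargc1a probe sets were lower in every KO mouse than in any WT mouse, with differences from -1.93 to -1.12. The arrays correlated at 0.975 to 0.983 in log2 signal, and 3'/5' ratios of the GAPDH and beta-actin controls overlapped between the groups. Striatal markers were bright, with Ppp1r1b at 4109 in KO and 3852 in WT. Of 8 tested markers of medium spiny neurons 7 were higher and 1 lower in KO, and 0 passed the test. Their summed signal ran from 26695 to 29341 in KO and from 24723 to 29321 in WT. Among markers of other regions and cells 1 was called. Ttr, a marker of choroid plexus, was called higher (0.91), and the summed signal of the 2 tested choroid plexus markers ran from 2812 to 3866 in KO and from 1480 to 2387 in WT. All 5 tested thalamus markers were higher in KO and 0 passed, with sums of 1315 to 1655 in KO and 626 to 2006 in WT. All 5 tested oligodendrocyte markers were lower and 0 passed, with sums of 22886 to 25039 in KO and 23552 to 28543 in WT. Astrocyte markers (4 higher, 2 lower), microglia markers (4 higher, 2 lower), vascular markers (1 higher, 4 lower) and markers of cortical excitatory neurons (2 higher, 3 lower) were mixed, with 0 called in limma. Their part in the results below was not tested, and in bulk tissue fewer cells of a type and less RNA per cell cannot be told apart.

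Ribosomal protein transcripts as a whole differed little between the genotypes. Signals were log2-transformed after adding 16, and every difference below is KO minus WT on that scale unless called a signal. Of the 99 probe sets, 85 from 42 genes lay above a filter on low signal and were tested. Only 3 of the 85 passed an adjusted p under 0.05 in limma, 1 higher in KO (Rps9) and 2 lower (Rpl22 and Rps2). That is 3.53% of these probe sets, against 0.47% of all 27022 tested. Members were chosen with earlier results of these arrays known, so this share is a description. Higher calls were 0.178% of all tested and lower calls 0.292%. With each gene represented by its brightest tested probe set, 31 of 42 genes were lower (73.8%, against 51.8% of all 12323 genes), with a median of -0.041 against -0.0069. This small shift had no stable sign, since without WT 2 the median was 0.0021, against -0.0043 over all tested genes. Centring arrays on their medians gave 0.0034, but it moved the median over all tested genes to 0.037, so the members stayed lower than that. The large subunit gave a median of -0.046 over 22 genes and the small subunit -0.035 over 20. A single gene of the 42 had an unadjusted p under 0.05, or 2.38%, against 9.73% of all tested genes. Groups did not overlap for 9 of the 85 probe sets, or 10.6%, against 14.4% of all tested. Without KO 2, KO 3 or WT 2 only 1 of the 85 was called, the Rps9 probe set.

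These genes were also measured closely. The standard error of the difference had a median of 0.072 over the 42 genes and 0.13 over all tested genes. For 30 of the 42, the 95% confidence interval lay within 0.25 of zero, a bound of 1.19-fold in either direction for that probe set. These intervals are not adjusted for the number of genes.

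**Figure D1:**
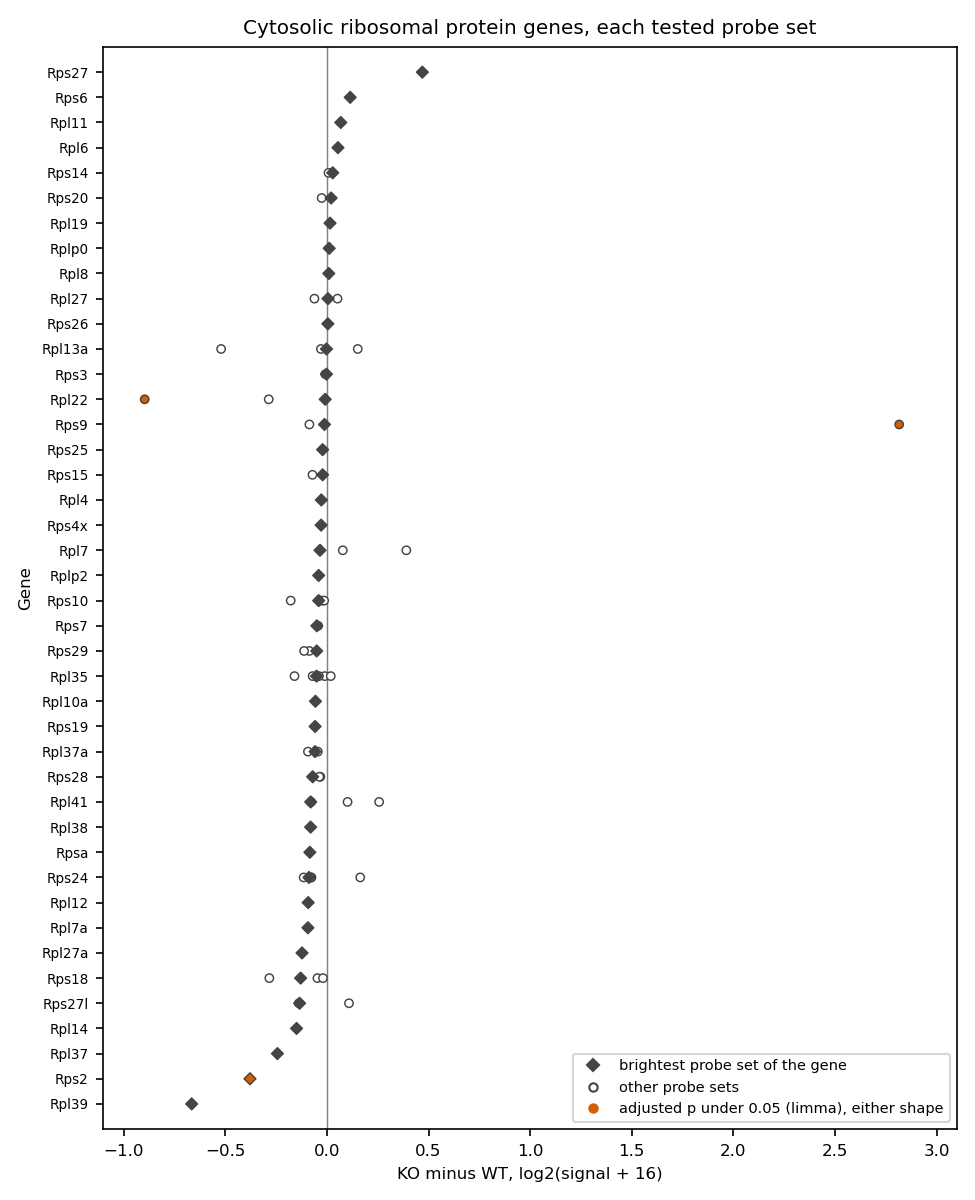
Difference between KO and WT for every tested probe set of the 42 genes, on the log2(signal + 16) scale, with genes ordered by their brightest probe set (diamonds; other probe sets are circles). Filled orange symbols passed an adjusted p under 0.05 in limma; most symbols lie close to 0, and the Rps9 probe set at 2.82 stands apart.

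Rps9, a protein of the small subunit that binds its RNA early in assembly, had 3 probe sets above the filter, and they did not agree. Probe set 1434624_x_at read 921, 855 and 852 in KO 1 to KO 3 and 98.3, 107 and 128 in WT 1 to WT 3. Every KO array was thus far above every WT array, and the groups did not come near each other. The means were 876 ± 39 in KO and 111 ± 15 in WT (SD, n = 3), a difference of 2.82 (SE 0.11, 95% interval 2.59 to 3.05, limma adjusted p = 7.8e-08), or 7.04-fold. It had the smallest p of all probe sets tested. Probe set 1433689_s_at read 2722, 2581 and 2457 in KO and 2494, 2815 and 2521 in WT. Those groups overlapped, with a difference of -0.012 (95% interval -0.17 to 0.15). The dim probe set 1426958_at read 31.8, 25.3 and 48.2 in KO and 54.8, 33.8 and 27.0 in WT, also overlapping, with a difference of -0.086 (95% interval -0.62 to 0.45). In exact permutation tests (two-sided), 3 against 3 mice cannot go below p = 0.1, which 1434624_x_at reached, while the others gave 0.9 and 0.7.

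The difference between probe sets was tested directly. On each array a probe set's log2 signal was taken relative to the mean of the gene's other tested probe sets, and that offset was compared between genotypes for all genes with at least 2 tested probe sets. For 1434624_x_at the offset was 1.30 in KO and -1.56 in WT, a difference of 2.86 (SE 0.17, adjusted p = 3.1e-05). For 1433689_s_at the offset differed by -1.38 (SE 0.12, adjusted p = 3.4e-04), a value that holds the shift of 1434624_x_at because the latter is part of the mean it is set against. The 1434624_x_at call held in all 16 alternatives, with a difference between 2.43 and 2.97 in its own signal and adjusted p from 1.7e-08 to 6.2e-04. The x in its name is Affymetrix's mark for a probe set that may hybridise to other transcripts. Among the 20 protein-coding neighbours on either side of Rps9, only 18 genes had a tested probe set. Of these 0 were called by limma, and Rdh13, a retinol dehydrogenase, came closest (-0.39, adjusted p = 0.32).

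**Figure D2:**
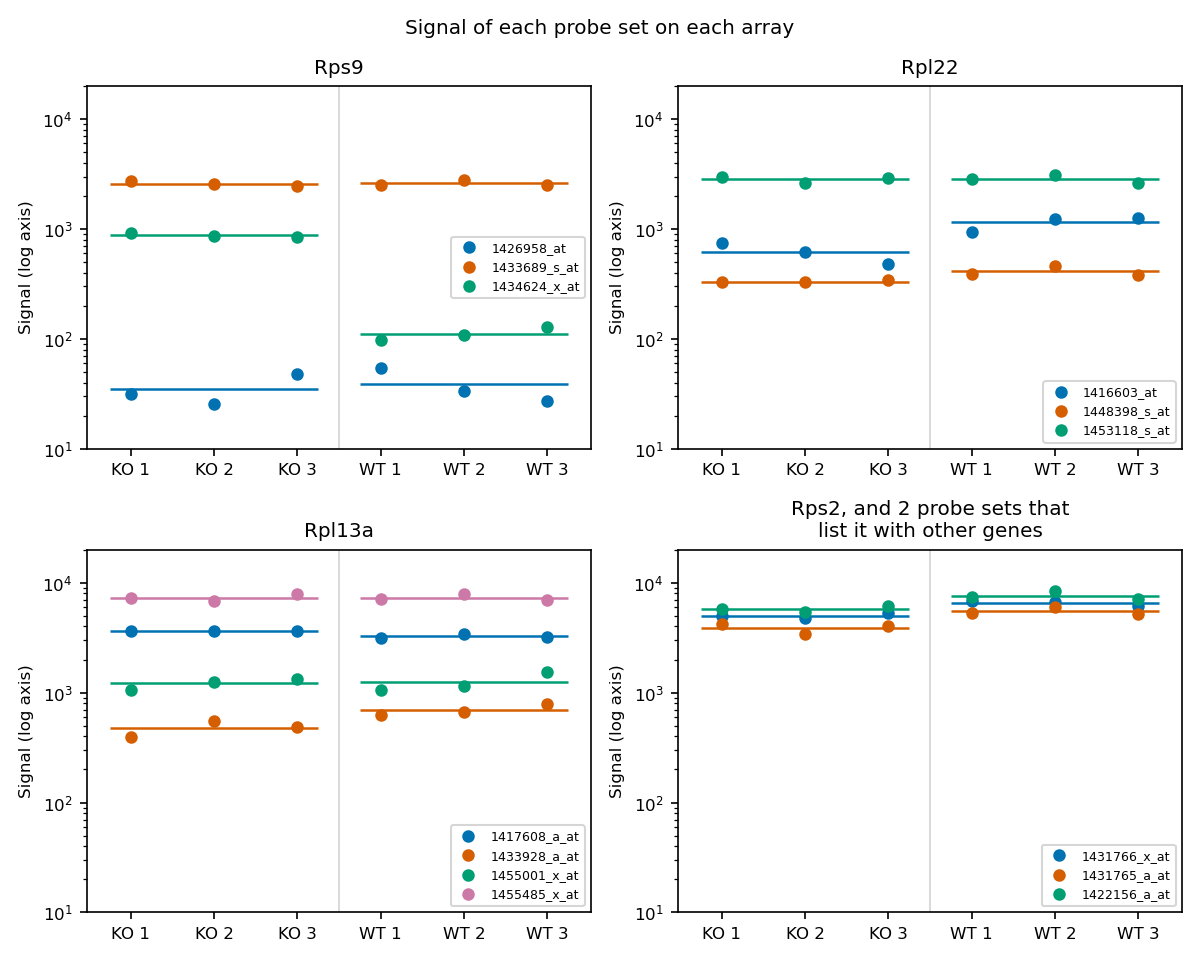
Signal of each probe set (colours) on each of the 6 arrays, on a log axis, for Rps9, Rpl22 and Rpl13a, and for the Rps2 probe set beside 2 probe sets that list Rps2 together with other genes. Points are single arrays and lines are group means over 3 mice; for Rps9 only 1434624_x_at separates the genotypes, while all 3 probe sets in the Rps2 panel are lower in KO.

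Rpl22, a large subunit protein that is not essential for the ribosome and whose loss is compensated by its paralogue Rpl22l1, gave graded values over 3 probe sets. Probe set 1416603_at read 749, 613 and 477 in KO and 943, 1242 and 1254 in WT. No KO array reached the lowest WT array. The means were 613 ± 136 in KO and 1146 ± 176 in WT (SD, n = 3), with a difference of -0.90 (SE 0.15, limma adjusted p = 0.021), or 1.86-fold lower. Probe set 1448398_s_at read 326, 328 and 344 in KO and 386, 463 and 383 in WT, again without overlap, with a difference of -0.29 that did not pass (adjusted p = 0.35). Probe set 1453118_s_at read 2945, 2646 and 2912 in KO and 2858, 3091 and 2616 in WT, with overlapping groups and a difference of -0.0086 (95% interval -0.18 to 0.16). The within-gene test gave 0.58 (SE 0.11, adjusted p = 0.074) for 1453118_s_at and -0.75 (SE 0.17, adjusted p = 0.18) for 1416603_at, so the disagreement of Rpl22 missed the threshold. The 1416603_at call was lost in limma without KO 2 (adjusted p = 0.079), KO 3 (0.053), WT 2 (0.10) or WT 3 (0.078), and also with no filter (0.10), with no intensity trend (0.27) or with robust estimation (0.062). The alternatives gave adjusted p between 0.0069 and 0.27. Rpl22l1 gave -0.092 (SE 0.068, adjusted p = 0.74).

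Rpl22 also had more called genes around it than any other member. Within 20 protein-coding genes on either side lay 3 genes with a called probe set, Vamp3 (19 genes before, -1.36), Acot7 (5 genes before, -0.47) and Kcnab2 (2 genes after, with both probe sets called at -0.65 and -0.89). Vamp3 encodes a vesicle SNARE, Acot7 an acyl-CoA thioesterase of neurons and Kcnab2 an auxiliary subunit of potassium channels. The called probe sets of all 3 were lower in KO. In Vamp3 the call came from 1437708_x_at alone, and its other tested probe sets gave -0.66, -0.27, -0.092 and 0.035. Of the 42 tested members, 10 had at least 1 called gene in such a window, or 23.8%, against 12.9% of 11840 tested genes. Rpl37a and Rps7 had 2 each, and neither was called itself. The part of the neighbourhood in the Rpl22 values was not tested.

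Rpl13a, a large subunit protein that also acts outside the ribosome to silence the translation of inflammatory mRNAs, had 4 tested probe sets and 0 calls. Probe set 1433928_a_at read 399, 555 and 482 in KO and 620, 671 and 781 in WT. The groups did not overlap, and the difference was -0.52 (SE 0.12, limma adjusted p = 0.11). Probe set 1417608_a_at went the other way, at 3658, 3646 and 3607 in KO and 3160, 3431 and 3232 in WT, also without overlap (0.15, SE 0.063, adjusted p = 0.47). The brightest, 1455485_x_at, gave -0.0022 (95% interval -0.17 to 0.16), and 1455001_x_at gave -0.029. In the within-gene test 1433928_a_at differed from the others by -0.56 (SE 0.13, adjusted p = 0.21), which did not pass.

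Rps2, a core protein of the small subunit, has a single probe set with 1 symbol, and among brightest probe sets of members it alone was called. Probe set 1431766_x_at read 5013, 4759 and 5322 in KO and 6831, 6655 and 6150 in WT. The highest KO array stayed below the lowest WT array. The means were 5031 ± 282 in KO and 6546 ± 354 in WT (SD, n = 3), a difference of -0.38 (SE 0.069, 95% interval -0.53 to -0.23, limma adjusted p = 0.036), or 1.30-fold lower. The call was lost without KO 1 (adjusted p = 0.16), KO 2 (0.19), KO 3 (0.050, just above the threshold), WT 1 (0.13) or WT 2 (0.13), and also after centring arrays on their medians (0.10), with no filter (0.17) or with no intensity trend (0.36). The alternatives gave adjusted p between 0.015 and 0.36. No called gene lay within 20 genes of Rps2, where 30 neighbours were tested.

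A further 2 probe sets list Rps2 together with the predicted genes Gm10420 and Gm6139, and were assigned to none of them. They were looked up after their values were seen. Probe set 1431765_a_at read 4222, 3386 and 4069 in KO and 5303, 6031 and 5150 in WT, a difference of -0.50 (SE 0.090, limma adjusted p = 0.035). Probe set 1422156_a_at read 5819, 5433 and 6117 in KO and 7404, 8409 and 7144 in WT, a difference of -0.40 (SE 0.076, adjusted p = 0.045). In both, every KO array lay below every WT array, as for the single-symbol probe set. Both calls were lost without any array except WT 3 (adjusted p up to 0.14 and 0.21), after centring arrays on their medians (0.071 and 0.12), with no filter (0.16 and 0.21) and with no intensity trend (0.33 and 0.38). With an offset of 1 in place of 16, 1422156_a_at was lost too (0.052). Among the 110 probe sets that list several symbols, at least 1 of them a name chosen by the rule, 104 were tested and these 2 were the only calls. Their median difference was -0.020, with 62 lower and 42 higher. Probe sets of like sequence share transcripts, so the 3 are not independent measurements.

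Disagreement between probe sets of a gene was called for Rps9 and for no other member. On simulated data this test recovered 0% of genes with a change of 0.5 and 59.2% with a change of 1, so smaller disagreements can be missed. In the within-gene test 1 of 19 genes with at least 2 tested probe sets disagreed, or 5.26%, against 0.336% of 5956 genes on the whole array. By probe set, 0.178% of 16304 passed. Rps9 was known to stand out from earlier results of these arrays, so this share is a description. The highest minus the lowest difference among a gene's probe sets had a median of 0.16 in the 19 genes and 0.20 in all genes. It exceeded 0.5 in 3 of the 19 genes, namely Rps9 (2.90), Rpl22 (0.89) and Rpl13a (0.67), or 15.8%, against 10.1% of all genes. At the other end, 8 of the 19 genes (42.1%) had a spread under 0.1, against 26.1% of all genes. These shares vary with the number of probe sets per gene. Under 0.1 lay 5 of 5 members with 2 probe sets (37.9% of all such genes) and 3 of 8 with 3 (14.9%). Over 0.5 lay 2 of 8 members with 3 probe sets (11.4% of all such genes) and 1 of 3 with 4 (17.1%). Rps9 ranked 2 of 5956 by this spread, Rpl22 ranked 80 and Rpl13a 223. Probe sets of opposite sign were found in 9 of the 19 genes, or 47.4%, against 53.8% of all genes, so a mixed sign was common for small differences on this array.

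**Figure D3:**
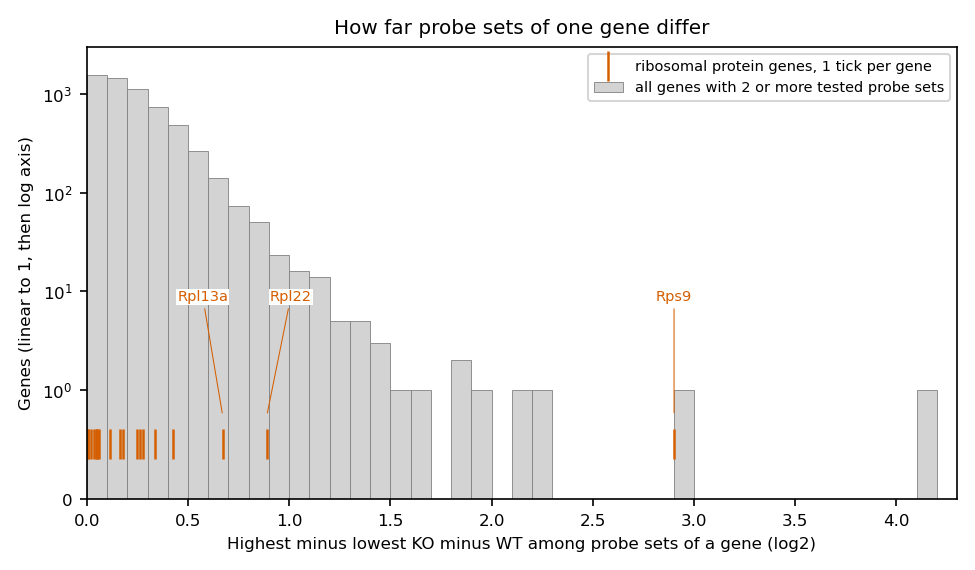
Number of genes (vertical axis, linear to 1 and then logarithmic) by the highest minus the lowest KO minus WT difference among their tested probe sets, in log2 units, for all 5956 genes with at least 2 tested probe sets (bars). Orange ticks are the 19 ribosomal protein genes: most lie below 0.5, and Rps9 lies at 2.90.

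Several genes gave nearly the same value from each of their probe sets. Rps7 had differences of -0.050 and -0.043, Rps3, which also takes part in DNA repair, -0.0022 and -0.0081, and Rps14 0.029 and 0.0078. Rps29, a zinc-binding protein, had 3 probe sets between -0.11 and -0.050. Others were ordinary. Rps10 had 5 between -0.18 and -0.014, and Rpl35, by the exit of the peptide tunnel, had 6 between -0.16 and 0.019. The spreads of Rps10 (0.16) and Rpl35 (0.18) were near the median of 0.20 over all genes. In Rps18 the 4 probe sets ran from -0.28 to -0.019, and the value furthest from zero came from a dim one (1421837_at) with mean signals of 35.1 in KO and 45.2 in WT. In Rpl41, the smallest protein of the ribosome, the dim 1433530_at gave 0.26 and the others -0.080 to 0.10. Rpl7 was different in that a bright probe set stood apart. 1426163_x_at read 1841, 2078 and 2220 in KO and 1533, 1230 and 1985 in WT, with overlapping groups (0.39, SE 0.14, limma adjusted p = 0.36), while the others gave 0.078 and -0.034.

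The names of probe sets record how specific Affymetrix judged them. Of the 85 tested, 38 carried _x_at, a mark for possible cross-hybridisation, or 44.7%, against 5.92% of all tested probe sets. Of those 38, 2 were called (Rps9 and Rps2), or 5.26%, against 0.937% of the 1601 _x_at probe sets in all. Of the 19 members with the plain suffix _at, 1 was called (Rpl22), or 5.26%, against 0.427% of 20375 in all. As members were chosen with earlier results known, these shares are descriptions too. None of the 25 with _a_at or the 3 with _s_at passed, against 0.586% of 3415 and 0.307% of 1631 in all. The median size of the difference, regardless of sign, was 0.066 for members with _x_at, 0.052 for those with _a_at and 0.11 for those with _at, against 0.12 over all tested probe sets.

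None of the following members passed the test, and values are of the brightest probe set with a single symbol. Rpl39, a short protein lining the exit tunnel, read 95.5, 175 and 44.0 in KO and 188, 148 and 137 in WT, which overlapped (-0.67, SE 0.31, limma adjusted p = 0.55). Rps27, a zinc-finger protein of the small subunit, read 86.5, 76.4 and 143 in KO and 116, 37.0 and 65.0 in WT (0.47, SE 0.29, adjusted p = 0.69). Both are dim probe sets with wide spreads. A brighter one that lists Rpl39 with another gene gave -0.11 (1450840_a_at, 8134 in KO and 8806 in WT). For Rps27 such a probe set gave -0.020 (1415716_a_at, 5331 in KO and 5415 in WT). The Rps27 paralogue Rps27l, a target of p53, gave -0.13. Rpl37 gave -0.24 (SE 0.12, adjusted p = 0.58), Rpl14 -0.15, Rps18 -0.13, Rpl27a -0.12 and Rpl7a -0.093. On the higher side lay Rps6, the substrate of the S6 kinases, at 0.11 (SE 0.14), Rpl11, which binds Mdm2 when ribosome assembly fails, at 0.068, Rpl6 at 0.054, Rps20 at 0.021 and Rpl19 at 0.015. The probe sets of Rps6, Rpl14, Rpl27a and Rpl37 had KO means of 108, 70.1, 218 and 629. Brighter probe sets list these genes with others, and the brightest gave 0.037, -0.11, 0.029 and -0.035 in that order. Signs were mixed for Rps6, whose remaining such probe sets gave -0.11 to 0.28. For Rpl14 the remaining ones all went the other way, at 0.015 to 0.098. Rplp0 and Rplp2, of the stalk that recruits elongation factors, gave 0.011 and -0.041. Rpsa, also known as a laminin receptor, gave -0.084 and the X-linked Rps4x -0.029.

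The spread between arrays was larger than the difference between genotypes and was shared by the members. Relative to the WT mean, the median over the 42 genes was -0.012 in KO 1, -0.11 in KO 2 and 0.016 in KO 3, and -0.049 in WT 1, 0.089 in WT 2 and -0.034 in WT 3. The ranges of the genotypes overlapped. WT 2 was the highest of the 6 arrays for 26 of the 42 genes (61.9%, against 19.5% of all tested genes), and KO 2 the lowest for 23 (54.8%, against 17.7%). Both subunits showed it, with KO 2 at -0.10 in the large and -0.11 in the small subunit and WT 2 at 0.097 and 0.086. Over all tested genes the array medians stayed between -0.013 and 0.012. The 150 other genes at least as bright as the median member, a set chosen after these values were seen, gave -0.061 in KO 2 and 0.065 in WT 2, but their lowest array was WT 3 at -0.082. After quantile normalization the members gave -0.029 in KO 2 and 0.029 in WT 2, and their median difference was -0.010. The part of overall signal strength in these shifts was not tested.

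**Figure D4:**
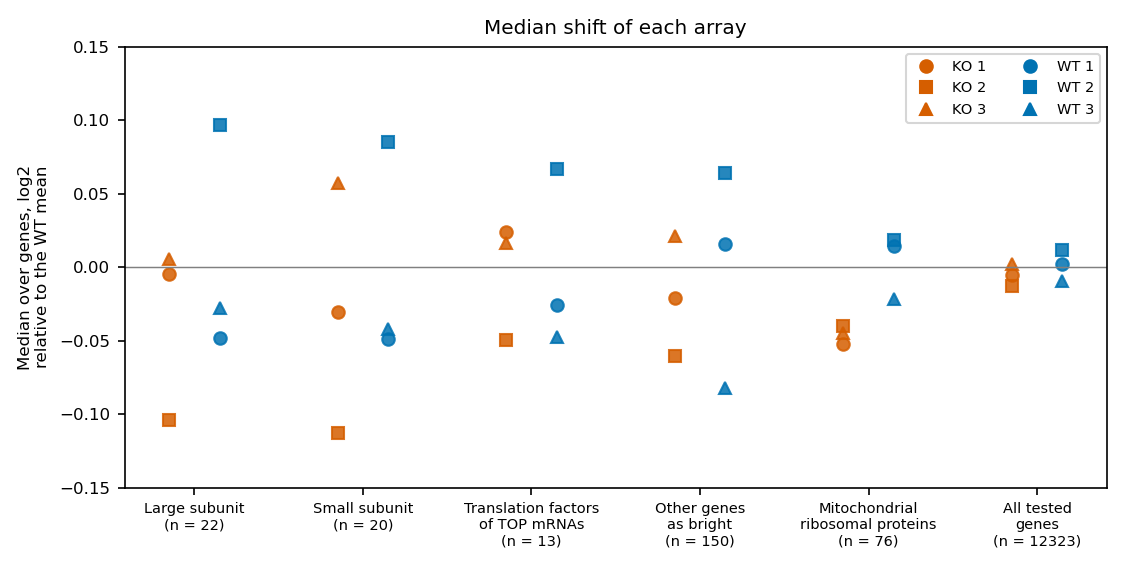
Median over the genes of each set on each array, as log2(signal + 16) relative to the mean of the 3 WT arrays (KO orange, WT blue; 1 symbol per replicate number). Ribosomal protein genes of both subunits are lowest in KO 2 and highest in WT 2, with overlapping genotypes, while the KO arrays of the mitochondrial ribosomal proteins lie between -0.052 and -0.040.

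The other lists of the translation machinery held 0 calls in limma. Counts are of genes by their brightest probe set, and 9.73% of all tested genes had an unadjusted p under 0.05. The start sequences of genes listed as translation factors of TOP mRNAs were not examined, and the list also holds other proteins such as Nap1l1. Of its 13 tested genes, 6 were higher and 7 lower (median -0.017), with 1 at an unadjusted p under 0.05. That was Eif3f, an initiation factor subunit, at 0.27 (adjusted p = 0.26), followed by the histone chaperone Nap1l1 at 0.13. Of 26 other initiation factors 15 were higher and 11 lower (median 0.021, 0 at an unadjusted p under 0.05), with the cap-binding protein Eif4e at 0.16 and Eif4g2 at 0.11. Of 34 ribosome biogenesis genes 26 were lower and 8 higher (median -0.042, 3 at an unadjusted p under 0.05). Utp3, of the small-subunit processome, gave -0.47 (adjusted p = 0.14) and Ltv1, which escorts the small subunit from the nucleus, -0.25 (adjusted p = 0.45). After centring arrays on their medians the biogenesis median was 0.0024, against 0.037 over all tested genes. Its sign thus depended on the scaling, but it stayed below the median of all tested genes, which was -0.0069 before centring.

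In the mTOR and S6 kinase pathway 9 of 19 genes were higher and 10 lower (median -3.2e-04, 2 at an unadjusted p under 0.05). Rps6ka5, a kinase named for ribosomal S6 but acting in the nucleus, gave 0.31 (adjusted p = 0.42), and Rheb, the activator of mTOR, 0.21 (adjusted p = 0.34). Mtor gave -0.24 (adjusted p = 0.61) and Larp1, which binds TOP mRNAs, 0.049. Of ribosomal proteins outside the naming rule 4 were tested, 2 higher and 2 lower, led by Rpl22l1 at -0.092 and Rpl7l1 at 0.10, and 0 of these had an unadjusted p under 0.05. The pseudogene Rps4l, also outside the rule, read 126, 134 and 146 in KO and 65.4, 111 and 130 in WT (0.40, adjusted p = 0.57).

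Mitochondrial ribosomal proteins were taken by symbol, as Mrpl or Mrps followed by a number and an optional letter, without checking each gene's role. Of 76 such genes, 54 were lower and 22 higher (median -0.060), with 2 at an unadjusted p under 0.05. After centring arrays on their medians this median was -0.016, against 0.037 over all tested genes. Mrps36 gave -0.28 (limma adjusted p = 0.37) and Mrpl49 -0.34 (adjusted p = 0.47). Their array medians did not overlap between the genotypes, at -0.052, -0.040 and -0.045 in KO and 0.014, 0.019 and -0.022 in WT, unlike those of the cytosolic set. The difference between the cytosolic and mitochondrial lists was not tested.

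The filter left out 14 of the 99 probe sets, and 3 genes, Rps16, Rpl3l and Rpl39l, had no tested probe set. Rpl3l, a paralogue of muscle, read 24.2, 15.7 and 15.4 in KO and 2.3, 13.7 and 31.5 in WT. Rpl39l, a paralogue of testis, read 21.1, 7.1 and 16.3 in KO and 32.6, 10.1 and 6.8 in WT. The Rps16 probe set (1455835_at) read between 0.5 and 1.1 on all arrays, which is a statement on that probe set only. An Rps20 probe set (1421935_at) read 19.0, 18.6 and 19.2 in KO and 19.6, 29.5 and 41.1 in WT, and an Rps6 probe set (1453466_at) 13.2, 25.5 and 11.6 in KO and 10.4, 1.9 and 4.4 in WT. Of 81 protein-coding genes in the annotation that fit the naming rule, 36 had no probe set with a single symbol, among them Rpl3, Rpl5, Rpl10, Rplp1 and Rps27a, and were not analysed here by name.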

How the data were processed

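Total RNA of striatum, per the series design, was hybridised to 1 array per mouse, 3 per group. Groups and replicate numbers came from the sample titles. The deposited intensity values are linear, 1 signal per probe set, and the submitters' processing notes name MAS5 without its settings. Trimmed means were equal on all 6 arrays, so changes are relative to the array. No depth is defined for arrays, and their number limits the precision. Symbols came from the platform annotation, updated through the GRCm38.p6 gene table, which matched 34741 of 34945 probe sets with 1 symbol; the array files name no build.

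Signals became log2(signal + 16), which understates changes of dim probe sets. The 64 control probe sets and probe sets whose mean log2 signal did not exceed the 40th percentile (a signal of 26.8) were left out, leaving 27022. KO and WT were compared with limma 3.58.1 in R 4.3.3 (eBayes with intensity trend) and Benjamini-Hochberg adjustment over all probe sets, at an adjusted p under 0.05. The within-gene test used the same model over 16304 probe sets. Both were tested on simulated data. Of probe sets given changes of 0.5, 1 and 2, the comparison of genotypes recovered 4.5%, 66.9% and 96.5%. False calls made up 6.25%, 3.6% and 4.27% of its calls. The within-gene test recovered 0%, 59.2% and 98.2% of genes, and 3.62% and 6.65% of its calls were false at changes of 1 and 2.

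Members, lists and tests were chosen with earlier results of these data known. Named were all probe sets of Rps9 and Rpl22, called members, members that disagree, the 8 highest and 8 lowest genes, members with known other roles or paralogues, the called or 2 leading genes of each list, and probe sets below the filter; others are examples chosen after their values were seen.
Alternatives were quantile normalization, median centring, offsets of 1 and 64, no filter or the 60th percentile, no trend, robust estimation, an adjusted p under 0.1, the replicate block, averaged probe sets, no _s_at or _x_at probe sets, and leaving out each array.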

Additional observations from a re-analysis of the deposited data

How the results depend on the processing

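Leaving out an array gave 1 or 2 called ribosomal protein probe sets in place of 3; without any filter or without the intensity trend 1 was called, that of Rps9. The number of genes whose probe sets disagree stayed at 1 without any array. It was 2 after quantile normalization, with an offset of 64, with the filter at the 60th percentile and at an adjusted p under 0.1. In the last case the second gene was Rpl22, at a within-gene adjusted p of 0.074 in limma. The number was 0 without _s_at and _x_at probe sets, which removes the probe set of Rps9. Calls over all probe sets fell from 127 to 52 without a filter and to 25 without the trend. With the replicate block 2 ribosomal protein probe sets were called, Rps9 and Rpl22, and Rps2 was lost (adjusted p = 0.14), as were the 2 probe sets that list it with other genes (0.10 and 0.16). Across the array, replicate numbers did not pair the mice: deviations of same-numbered mice correlated at -0.0091, -0.035 and 0.017. Over the ribosomal proteins alone the values were 0.079, 0.21 and -0.081, with that of replicate 2 above the 0.1 set as the least for a pair.

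The median of the 42 genes ran from -0.065 to 0.0021 without single arrays, and moved by less than the spread between arrays in all 14 alternatives, as did those of both subunits. Median centring moved the median of initiation factors to 0.065, of ribosome biogenesis to 0.0024 and of mitochondrial ribosomal proteins to -0.016. It moved that of all tested genes to 0.037 as well. The mTOR median was 0.049 with the mean of probe sets and -0.0088 to 0.062 without single arrays. That of mitochondrial ribosomal proteins was then -0.068 to -0.044. Signs of uncalled probe sets near zero turned. With median centring 1453118_s_at of Rpl22 gave 0.035 and 1433689_s_at of Rps9 0.032. Without single arrays the former ran from -0.070 to 0.050 (above zero without KO 2, 0.040, or WT 2), the latter from -0.049 to 0.043 (above zero without KO 3, 0.024, or WT 2), and 1426958_at of Rps9 from -0.26 to 0.12 (above zero without KO 2, 0.055, or WT 1). At the 60th percentile 1426958_at was not tested. In all, 16 of 16 alternatives kept the Rps9 call.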
